A study of Mus musculus with 12 samples.

Results

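The genes described here are 10 that encode or control the contractile apparatus of smooth muscle: Tagln, Cnn1, Myh11, Lmod1, Smtn, Mylk, Synpo2, Pln, Myocd and Cald1. They were chosen by name, and all 10 were found among the 37287 gene IDs that both deposited count tables list. Mouse embryonic fibroblasts carrying the genotype MyoD-/-; Myf5-/- were used in all 12 libraries, so every group, controls included, is null by genotype for these 2 muscle-determining transcription factors. Cells were infected with lentivirus in the presence of polybrene, moved after 24 h to a differentiation medium and harvested 20 h later. RNA was selected with oligo-dT and sequenced.

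The first table holds 10 libraries. GFP virus, the control, was used in 5 of them: 4 form a series at a multiplicity of infection (MOI, virus particles per cell) of 15, 30, 60 and 120, and the fifth was given a 1x dose. MyoD virus was used at 1x and 2x, Myf5 virus at 1x and 2x, and 1 library came from untransduced cells. The second table holds 1 library of MyoD at 1x from another batch of virus and 1 library of a construct labelled Chimera at 1x, whose makeup the labels do not give. The labels do not say whether libraries of a group came from separate cultures, so p-values measure only the spread between these libraries, which may be technical, and the MyoD and Myf5 pairs differ in dose as well.

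In smooth muscle, contraction is switched on when calcium and calmodulin activate myosin light chain kinase (Mylk), which phosphorylates the light chain of smooth muscle myosin (Myh11). Transgelin (Tagln), calponin (Cnn1), caldesmon (Cald1) and smoothelin (Smtn) bind the actin filaments, leiomodin (Lmod1) nucleates them and synaptopodin-2 (Synpo2) bundles them. Phospholamban (Pln) restrains the calcium pump of the sarcoplasmic reticulum. Serum response factor binds CArG boxes in many of these genes, and myocardin (Myocd) is its coactivator in smooth muscle. Fibroblasts that turn into myofibroblasts switch on part of the same set together with smooth muscle actin (Acta2), and skeletal myoblasts also express several of these genes.

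Total counts were 17.9 to 22.4 M (mega) in the 4 MOI libraries, 68.3 to 81.5 M in the other 6 of the first table and 23.7 to 25.1 M in the second table. Levels are given as CPM, counts scaled to a library total of 1 M. The labels were checked on the delivered genes: Myod1 stood at 309 and 617 CPM in 1x and 2x MyoD and at 5.21 to 5.99 CPM in the other libraries of the first table, and Myf5 stood at 150 and 249 CPM in 1x and 2x Myf5 and at 11.9 to 24.4 CPM elsewhere there. Chimera held 165 CPM of Myf5 and 22.1 CPM of Myod1, against 14.7 and 324 CPM in second-batch MyoD. All 9 fibroblast markers were detected in every library, with a sum of 10953 to 20817 CPM, whereas the endothelial list summed to 2.19 to 10.7 CPM, the epithelial list to 0.50 to 2.68 CPM and the cardiomyocyte list to 5.67 to 19.0 CPM. The 8 pericyte markers summed to 486 to 1158 CPM, with Pdgfrb at 373 to 974 CPM and Kcnj8 at 0 in all 12 libraries. The 4 MOI libraries stood apart from the 1x GFP library: 24.4% of 13825 genes tested differed between them at an adjusted p under 0.05, so the tests of MyoD, Myf5 and untransduced cells were run both with all 5 GFP libraries and with the 1x GFP library alone as the control. Depth, the MOI series and any difference in preparation go together in these 4 libraries and cannot be told apart.

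Promoter windows from RefSeq (GRCm38.p6, 250 bases before the transcription start to 50 after it, read in the direction of transcription) were found for 7 of the 10 genes, 8 windows in all. Those of Lmod1 (chr1:135324563-135324862, plus strand) and Synpo2 (chr3:123236100-123236399, minus strand) are shown because these 2 genes were the ones highest in both MyoD libraries of the first table. Capitals mark core E-boxes, the kind of site that MyoD and Myf5 bind, searched as CAGCTG, which reads the same on both strands, and as CAGGTG with its reverse complement CACCTG, so that both strands were covered; a MEF2 box, which overlaps none of them, is also in capitals and was searched for after the sequences were read.
Lmod1: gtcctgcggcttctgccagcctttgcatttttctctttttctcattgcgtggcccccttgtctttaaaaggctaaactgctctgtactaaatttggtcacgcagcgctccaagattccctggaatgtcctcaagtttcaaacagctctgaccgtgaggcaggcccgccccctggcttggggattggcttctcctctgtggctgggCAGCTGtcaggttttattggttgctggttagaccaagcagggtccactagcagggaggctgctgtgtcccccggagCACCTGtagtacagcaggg
Synpo2: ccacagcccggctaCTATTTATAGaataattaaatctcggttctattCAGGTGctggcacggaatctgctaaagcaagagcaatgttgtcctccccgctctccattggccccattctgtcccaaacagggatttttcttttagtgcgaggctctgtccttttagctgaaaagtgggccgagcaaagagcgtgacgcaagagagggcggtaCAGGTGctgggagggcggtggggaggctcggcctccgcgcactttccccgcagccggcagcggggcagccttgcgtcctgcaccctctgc
Lmod1 has core E-boxes that begin at -45 and 32 relative to the start, and Synpo2 has them at -203 and -40, with the MEF2 box at -236. At least 1 core E-box was present in 3 of the 8 windows (Lmod1, Synpo2 and Pln), where 33.0% of 32851 promoters of that length hold one. At least 2 were present in 7.37% of promoters, and a MEF2 box in 0.557%. The looser E-box CANNTG was found in 7 of the 8 windows and in 72.3% of all promoters. A CArG box was found in 0 of the 8 windows and in 1.63% of all promoters, which says only that these letters are not in these windows. The motif matches describe sequence and were not tied to binding.

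The 10 genes were expressed at very different levels. Per kilobase of annotated exon, the median over the 10 libraries of the first table was 94.6 CPM per kb for Cald1, 49.6 for Tagln, 8.21 for Smtn, 4.23 for Lmod1, 0.374 for Mylk and 0.133 for Synpo2, then 0.0790 for Cnn1, 0.0342 for Myh11, 0.0249 for Pln and 0 for Myocd. The ranges of neighbours in this order did not overlap for Cald1 and Tagln, Tagln and Smtn, or Lmod1 and Mylk, whereas those of Smtn and Lmod1, of Mylk and Synpo2 and of neighbours among the 5 lowest genes did. Only the 6 genes from Cald1 to Synpo2 passed the filter of 1 CPM in at least 2 libraries and were tested; Cnn1, Myh11, Pln and Myocd did not, and are described by their counts.

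**Figure D1:**
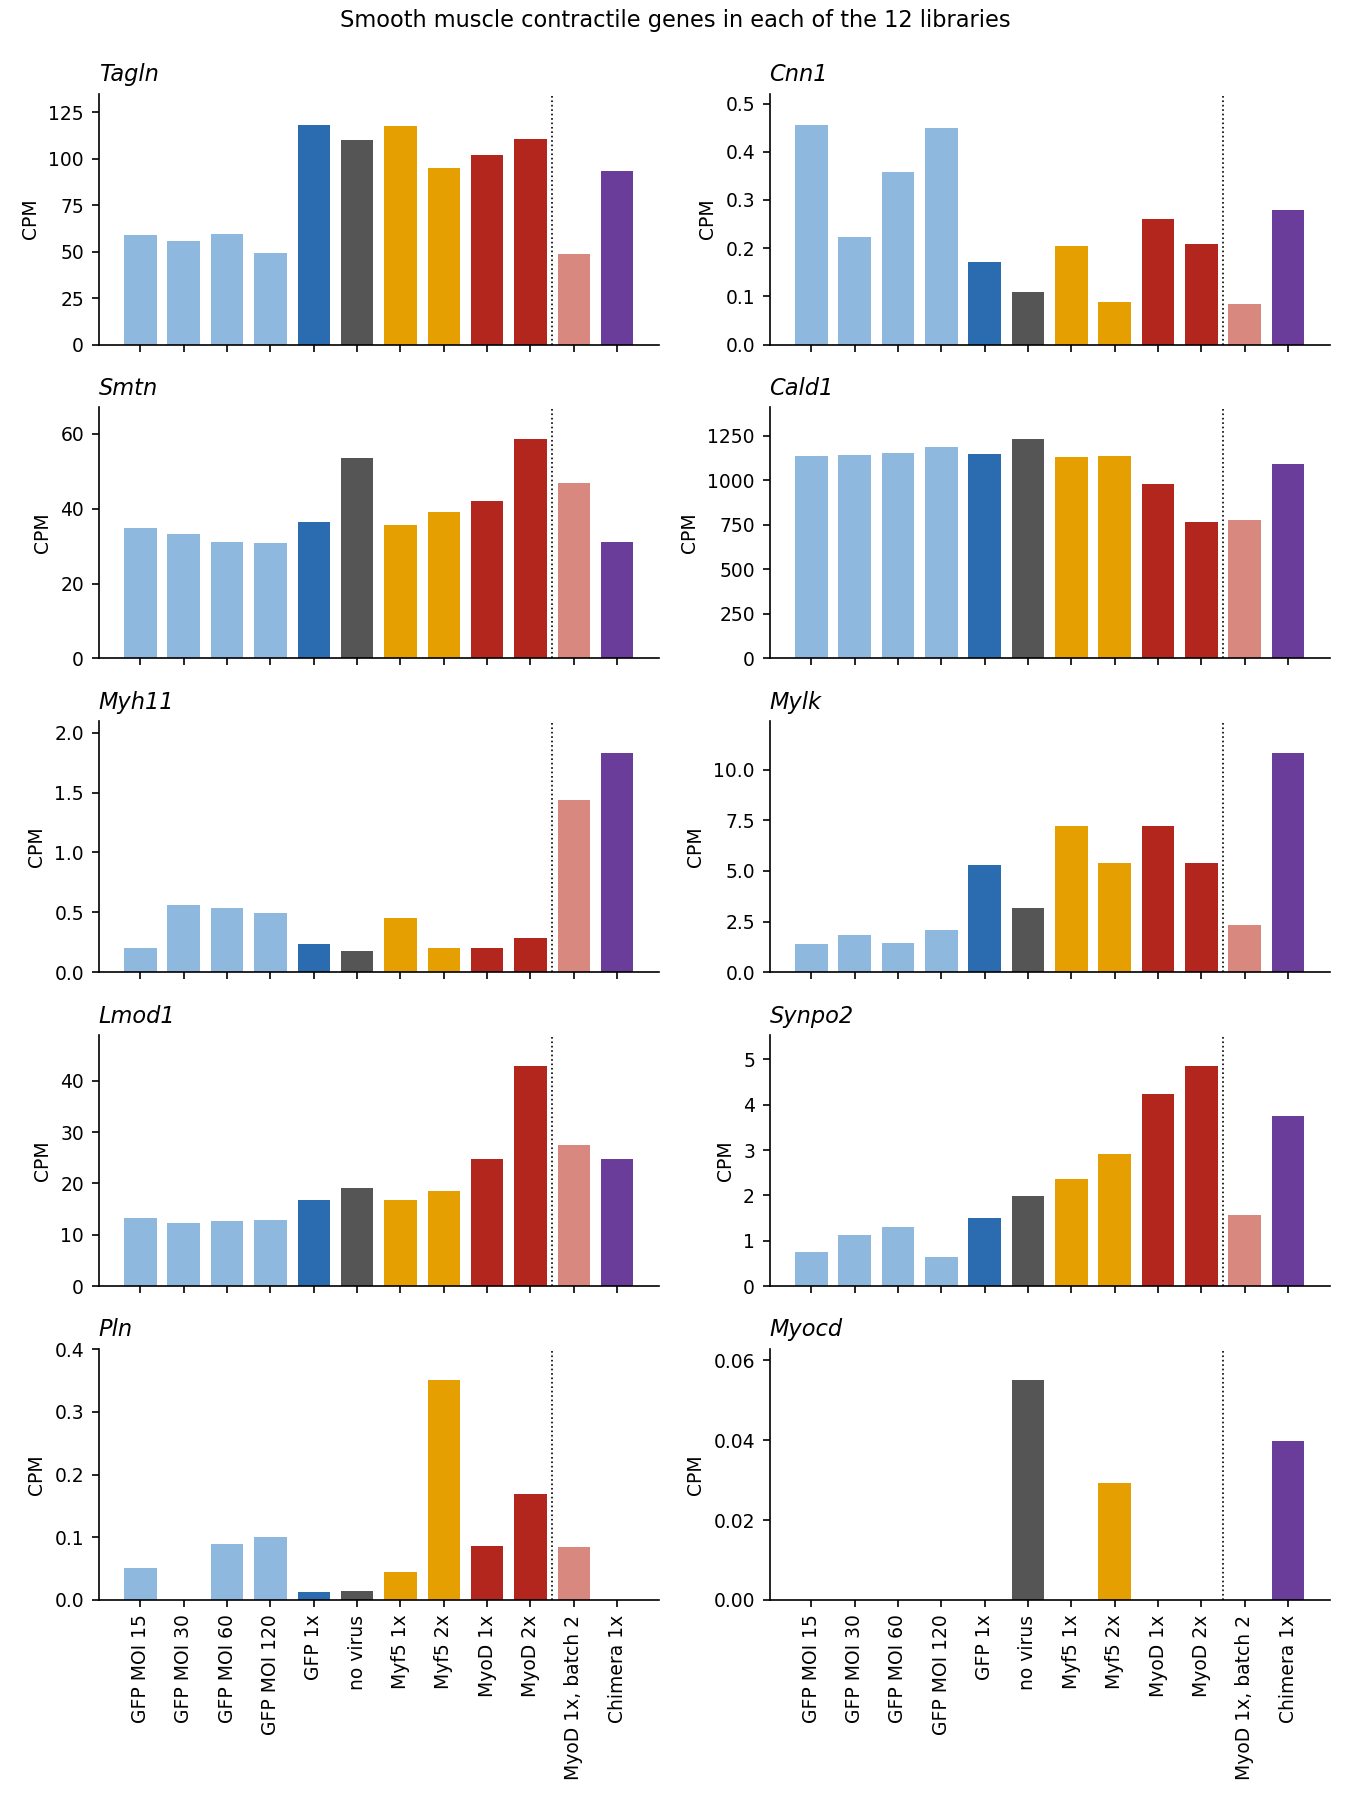
Level of each of the 10 genes in CPM (bars, linear axes that start at 0 and differ between panels) in each of the 12 libraries; the dotted line separates the first table (left) from the second. Tagln and Mylk are low in the 4 MOI GFP libraries, Lmod1 and Synpo2 are highest in the first table in both MyoD libraries, and Cald1 is lowest there; the bars of Cnn1, Myh11, Pln and Myocd rest on at most 46 counts each.

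With MyoD, 4 of the 6 genes tested were higher and 1 was lower than in the 5 GFP libraries (edgeR quasi-likelihood test, adjusted p under 0.05), where 42.4% of all genes were called, 21.4% higher and 20.9% lower. Their median log2 fold change was 1.00, against -0.03 over all genes tested. Lmod1, Smtn, Mylk and Synpo2 rose and Cald1 fell. Against the 1x GFP library alone, 2 were higher (Lmod1, Synpo2) and 1 lower (Cald1), and the median log2 fold change of the 6 was 0.37. In that comparison 30.5% of all genes were called, 15.1% higher and 15.4% lower. With Myf5, only Synpo2 was called, higher, against the 5 GFP libraries, where 6.1% of all genes were called, 3.81% higher and 2.29% lower; against 1x GFP none of the 6 was (edgeR; 1 at an unadjusted p under 0.05), where 1.18% of all genes were called. The MyoD and Myf5 comparisons share their GFP libraries.

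**Figure D2:**
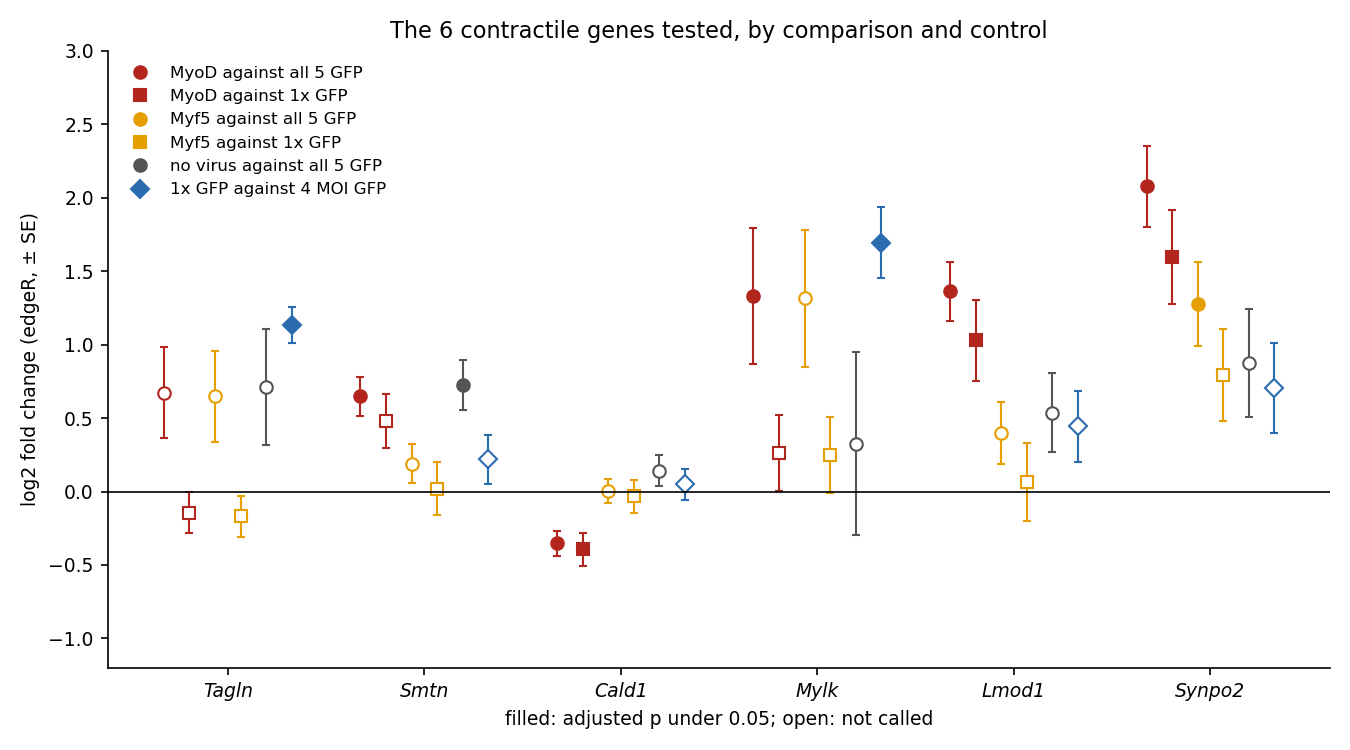
Log2 fold change (points) with its standard error (bars) from edgeR for the 6 genes tested, in 6 comparisons; filled symbols have an adjusted p under 0.05. For Tagln and Mylk the MyoD and Myf5 values drop to between -0.17 and 0.26 when the control is the 1x GFP library, while for Lmod1 and Synpo2 the MyoD values remain at 1.03 and 1.60.

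Synpo2 encodes an actin-bundling protein that in striated muscle lies at the Z-disc. Its level was 0.76, 1.12, 1.30 and 0.65 CPM in GFP at an MOI of 15, 30, 60 and 120, 1.51 CPM in 1x GFP, 1.98 CPM in untransduced cells, 2.36 and 2.92 CPM in 1x and 2x Myf5, and 4.23 and 4.84 CPM in 1x and 2x MyoD. The MyoD pair lay above the Myf5 pair, and the Myf5 pair above every control, with no overlap. With MyoD the log2 fold change was 2.08 ± 0.28 (SE; edgeR adjusted p = 0.00077) against the 5 GFP libraries and 1.60 ± 0.32 (adjusted p = 0.0093) against 1x GFP. With Myf5 it was 1.27 ± 0.29 (adjusted p = 0.036) against the 5 GFP libraries, a call that was lost on leaving out any 1 library of the pair or of the MOI series (log2 1.11 to 1.42), and 0.79 (adjusted p = 0.245) against 1x GFP. The MyoD call was kept under all 13 alternatives run, all on the first table, with a log2 fold change of 1.60 to 2.32. Second-batch MyoD, in the second table, held only 1.63 CPM (37 counts, mitochondrial genes left out of the total). That level is near 1x GFP and below untransduced cells and both Myf5 libraries, a comparison across tables that was not tested.

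Lmod1, whose product nucleates actin filaments, stood at 13.3, 12.3, 12.6 and 12.8 CPM along the MOI series, 16.7 CPM in 1x GFP and 19.2 CPM in untransduced cells. Myf5 left it at 16.7 CPM at 1x and 18.5 CPM at 2x, within the span of the 1x GFP and untransduced libraries. MyoD libraries held 24.7 CPM at 1x and 42.8 CPM at 2x, above every other library of the first table, an order shown by Lmod1 and Synpo2 of the 6 genes tested and by 15.8% of all genes tested. The log2 fold change with MyoD was 1.36 ± 0.20 (SE; edgeR adjusted p = 0.0012) against the 5 GFP libraries and 1.03 ± 0.27 (adjusted p = 0.0246) against 1x GFP, and the call was kept under all 13 alternatives, at 0.89 to 1.72. With Myf5 it was 0.40 (adjusted p = 0.24), and 0.06 (adjusted p = 0.925) against 1x GFP.

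The 8 skeletal muscle markers (among them Myog, Actc1, Ckm and Ttn) also rose with MyoD against all the GFP libraries. In that comparison 8 of 8 were called higher, where 21.4% of all genes were. None of the 8 would have passed the filter without the MyoD and Myf5 libraries, so these calls were all but fixed in advance. The markers summed to 600 and 1966 CPM in the 2 MyoD libraries, against 1.46 to 85.3 CPM in the other 8 libraries of the first table. Their part in the rise of Synpo2 and Lmod1 was not tested. In these bulk samples, more cells of a type and more RNA per cell cannot be told apart, and the same holds for fewer cells and less RNA.

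Cald1 encodes caldesmon, which fibroblasts make in a light form and smooth muscle in a heavy form; the counts do not separate the 2. Cald1 was nearly flat in the controls, at 1136, 1142, 1152 and 1186 CPM along the MOI series, 1149 CPM in 1x GFP and 1234 CPM in untransduced cells. Both Myf5 libraries held 1134 CPM. With MyoD it was 979 CPM at 1x and 764 CPM at 2x, the lowest values of the first table, below all 8 others, as for 15.5% of all genes tested. The log2 fold change with MyoD was -0.35 ± 0.08 (SE; edgeR adjusted p = 0.0097), and -0.39 ± 0.11 (adjusted p = 0.0304) against 1x GFP. Leaving out 2x MyoD ended the call (log2 -0.20, adjusted p = 0.0953). Fibroblast markers fell in the same libraries, 5 of 9 called lower (Col1a1, Col3a1, Pdgfra, Lum and Dcn) against the 5 GFP libraries and 8 of 9 against 1x GFP, with a sum of 10953 to 14907 CPM in MyoD against 14085 to 20817 CPM in the other libraries of the first table; their part in the Cald1 value was not tested.

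Smtn encodes smoothelin, which associates with stress fibres of contractile smooth muscle cells. It was lowest in the MOI series, at 34.9, 33.2, 31.1 and 30.9 CPM; it was 36.4 CPM in 1x GFP and measured 35.5 and 39.0 CPM in 1x and 2x Myf5. Untransduced cells held 53.5 CPM, a value between those of MyoD at 1x (42.0 CPM) and at 2x (58.7 CPM). The log2 fold change with MyoD was 0.65 ± 0.13 (SE; edgeR adjusted p = 0.0050) against the 5 GFP libraries and 0.48 (adjusted p = 0.0786) against 1x GFP, and leaving out 2x MyoD also ended the call (log2 0.37). Smtn was the only one of the 6 genes called in untransduced cells against the 5 GFP libraries, higher by 0.72 ± 0.17 on the log2 scale (SE; edgeR adjusted p = 0.0332), where 8.35% of all genes were called, 5.83% higher and 2.52% lower. That call was lost on leaving out any library of the MOI series, and against 1x GFP, where 4.94% of all genes were called, the value was 0.55 (adjusted p = 0.174) and none of the 6 was called (edgeR; 2 at an unadjusted p under 0.05). Antisense genes Gm11946 and Gm11947 overlap exons of Smtn, and no source used here gives the strand setting of the counting.

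Tagln, the transgelin gene and a widely used early marker of smooth muscle and of myofibroblasts, split the GFP controls. It stood at 59.1, 55.9, 59.5 and 49.4 CPM along the MOI series and at 118 CPM in 1x GFP. Every other library of the first table was close to the latter: 110 CPM untransduced, 117 and 95.1 CPM in 1x and 2x Myf5, and 102 and 111 CPM in 1x and 2x MyoD. The 6 libraries outside the MOI series spanned 95.1 to 118 CPM and did not overlap the MOI series. Its log2 fold change was 1.13 ± 0.12 (SE; edgeR adjusted p = 0.0012) in 1x GFP against the MOI series. With MyoD it was 0.67 ± 0.31 (adjusted p = 0.107) against the 5 GFP libraries and -0.14 (adjusted p = 0.464) against 1x GFP, and with Myf5 it was 0.65 (adjusted p = 0.20) and -0.17. Without the 1x GFP library, Tagln was called higher with MyoD, at 1.005 on the log2 scale, with Myf5, at 0.96, and in untransduced cells, at 1.03. Pcsk7 overlaps exons of Tagln on the opposite strand; Pcsk7 stood at 28.4 to 35.2 CPM in all 12 libraries.

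Mylk, the kinase that activates smooth muscle myosin, followed a like split. It was 1.42, 1.85, 1.43 and 2.09 CPM along the MOI series, 5.28 CPM in 1x GFP and 3.15 CPM in untransduced cells. The 1x libraries of MyoD and Myf5 held 7.20 and 7.23 CPM, and the 2x libraries held 5.40 CPM with either factor. The 1x GFP library exceeded the MOI series by 1.69 ± 0.24 on the log2 scale (SE; edgeR adjusted p = 0.0030). The MyoD value against the 5 GFP libraries was 1.33 ± 0.46 (adjusted p = 0.0447), close to the threshold, and the call was lost on leaving out any 1 library of the MOI series or of the MyoD pair (log2 1.14 to 1.51). Against 1x GFP it was 0.26 (adjusted p = 0.468). With Myf5 the value against the 5 GFP libraries was 1.31 ± 0.46 (adjusted p = 0.111 by edgeR, 0.0357 by DESeq2), and 0.25 (adjusted p = 0.666 by edgeR) against 1x GFP. Gene counts do not separate the kinase from telokin, a short protein made from the same gene, and the antisense genes E130310I04Rik and Gm21691 overlap Mylk exons.

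Across these genes, 5 of the 6 tested (Tagln, Mylk, Smtn, Lmod1 and Synpo2) had all 6 other libraries of the first table above all 4 MOI libraries, an order that 11.1% of the 13825 genes tested also showed. For 3 of them (Tagln, Lmod1 and Mylk) 1x GFP stood apart above the MOI series by Dixon's test, as it did for 6.78% of the genes tested. The test of 1x GFP against the MOI series called 2 of the 6 (Tagln, Mylk), both higher, beside 24.4% of all genes, of which 12.2% were higher. Synpo2 (log2 0.71, adjusted p = 0.125), Lmod1 (0.44), Smtn (0.22) and Cald1 (0.05) did not pass. Within the MOI series, a slope on log2 MOI was called for 0 of the 6 (edgeR; 2 at an unadjusted p under 0.05, Tagln and Smtn; 0 by DESeq2), where 7.49% of 13383 genes were called. The Tagln slope was -0.06 per doubling of MOI.

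The 4 remaining genes were near the limit of detection in the first table. Cnn1, the calponin of differentiated smooth muscle, had 4 to 21 counts per library, 0.0876 to 0.456 CPM. It was 0.456, 0.224, 0.358 and 0.449 CPM along the MOI series and 0.0876 to 0.261 CPM in the other 6 libraries, so it ran opposite to Tagln in level, with overlapping ranges. Myh11, the smooth muscle myosin heavy chain, had 4 to 31 counts, 0.179 to 0.560 CPM, with its highest values in GFP at an MOI of 30, 60 and 120 (0.560, 0.536 and 0.499 CPM) and in 1x Myf5 (0.454 CPM). Both MyoD libraries lay inside the range of the GFP libraries or just below it for each gene, at 0.261 and 0.208 CPM for Cnn1 and at 0.199 and 0.286 CPM for Myh11.

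Pln had 1, 0, 2 and 2 counts along the MOI series, 1 in 1x GFP, 1 in untransduced cells, 3 and 24 in 1x and 2x Myf5, and 7 and 13 in 1x and 2x MyoD. The 24 counts in 2x Myf5 (0.350 CPM) were its highest level and exceeded 1x Myf5 by 7.98-fold (exact 95% interval 2.42 to 41.4). Such intervals cover counting error only, and reads without molecular identifiers are not independent molecules. Cep85l overlaps exons of Pln on the opposite strand and stood at 2.07 to 3.54 CPM in the 12 libraries, at 2.92 CPM in 2x Myf5. Myocd had 0 counts in 8 of the 10 libraries, 4 in untransduced cells and 2 in 2x Myf5; 0 counts allow up to 3 counts, which is 0.0368 CPM at the depth of 1x GFP and 0.168 CPM at that of GFP at an MOI of 30. No difference in Myocd was detectable at this depth.

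MyoD was set against Myf5 directly. With edgeR, 0 of the 6 genes were called, 4 had an unadjusted p under 0.05, and DESeq2 called 2, where edgeR called 5.5% of all genes. The log2 difference, MyoD minus Myf5, was 0.97 for Lmod1 (edgeR adjusted p = 0.0603) and -0.36 for Cald1 (adjusted p = 0.0676). Both passed with dose as a term in the fit (Lmod1 0.91, adjusted p = 0.0307; Cald1 -0.37, adjusted p = 0.0348), and without 1x MyoD Lmod1 (1.32), Cald1 (-0.53) and Smtn (0.70) passed. It was 0.80 for Synpo2 (adjusted p = 0.18) and 0.46 for Smtn (adjusted p = 0.127). Tagln and Mylk differed by 0.02 (adjusted p = 0.978 and 0.991).

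The 2x libraries were compared with the 1x libraries in a common term over MyoD and Myf5. It called 0 of the 6 genes (edgeR; 2 at an unadjusted p under 0.05, Lmod1 and Smtn; 0 by DESeq2), where 0.0217% of all genes were called. Within the single MyoD pair, Lmod1 was 1.73-fold higher at 2x than at 1x (exact 95% counting interval 1.64 to 1.83) and Smtn 1.40-fold higher (1.34 to 1.46), whereas in the Myf5 pair the ratios were 1.11 (1.02 to 1.20) and 1.10 (1.04 to 1.16). Mylk was lower at 2x in both pairs, at 0.751 (0.660 to 0.853) and 0.747 (0.651 to 0.856) of its 1x level. Cald1 at 2x was 0.780 (0.772 to 0.789) of its 1x level in the MyoD pair and 1.00 (0.991 to 1.01) in the Myf5 pair. Each ratio compares 2 libraries, not the doses.

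Other genes of the contractile and myofibroblast program were read from lists. With MyoD against the 5 GFP libraries, 21.4% of all genes tested were higher and 20.9% lower. With Myf5 against the same libraries, 3.81% were higher. With MyoD against 1x GFP, 15.1% were higher and 15.4% lower. The shares of all genes called in the other comparisons are given above and stand beside the list counts too. With MyoD, 12 of 18 other contractile genes tested (22 listed) were higher and 1 was lower than in the 5 GFP libraries, with a median log2 fold change of 0.68 against -0.03 over all genes. Among them were Acta2, smooth muscle actin (1.71), Actg2, enteric smooth muscle actin (1.54), Tpm2, a tropomyosin (1.91), and Des, the intermediate filament desmin of all muscle types (5.16). The single lower gene of the list was the integrin Itga8 (-0.64). Acta2 stood at 228, 220, 226 and 188 CPM along the MOI series, 436 CPM in 1x GFP, 568 CPM untransduced, 428 and 424 CPM in 1x and 2x Myf5, and 594 and 1046 CPM in 1x and 2x MyoD, so the MOI series was lowest and MyoD highest, as for Lmod1. Against 1x GFP, 11 of the 18 were higher and 2 lower (Itga8, Palld) with MyoD (median 0.68), and Acta2 was higher by 0.93 (adjusted p = 0.0391). With Myf5, 3 of the 18 were higher against the 5 GFP libraries (median 0.28), among them Csrp1 (0.43) and the chaperone Cryab (1.38), and 0 against 1x GFP (edgeR; 6 at an unadjusted p under 0.05).

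Paralogs of the 10 genes moved both ways. With MyoD, 4 of 9 tested (16 listed) were higher and 4 lower (median 0.06), where 21.4% of all genes were higher and 20.9% lower. Lmod3 and Mylk4 reached 1 CPM in the first table only in the MyoD pair. They passed the filter through that pair alone, so their higher calls were all but fixed in advance. Synpo2l reached 1 CPM there only in the MyoD and Myf5 libraries, so its higher call was likewise all but fixed. Besides Lmod3, Mylk4 and Synpo2l, Cnn3 (0.46) was higher, and Tagln2, Cnn2, Myh10 and Synpo were the lower ones. Against 1x GFP 4 were higher and 3 lower (median -0.09), Myh10 no longer among the latter. Of the skeletal muscle relatives, Lmod3, Mylk4 and Synpo2l were higher. Mylk2, another of them, stayed under 1 CPM in every library and was not tested. It was at 0.620 and 0.560 CPM in 1x and 2x MyoD and at 0.307 CPM in 1x GFP. Lmod3 had 247 and 1048 counts (3.07 and 13.6 CPM) in 1x and 2x MyoD and 4 counts in all GFP libraries together, all in 1x GFP. Mylk4 stood at 2.41 and 12.1 CPM in the MyoD pair, and was at 0 in 4 of the 5 GFP libraries. Synpo2l, the closest relative of Synpo2, was 17.5 and 50.2 CPM in 1x and 2x MyoD, 1.60 and 3.20 CPM in 1x and 2x Myf5, and at most 0.548 CPM in GFP. Synpo, a relative found in podocytes and neurons, fell against the 5 GFP libraries with MyoD (-1.27, edgeR adjusted p = 0.00079) and with Myf5 (-0.75, adjusted p = 0.0344). With Myf5 against 1x GFP, 0 of the 9 paralogs were called, where 1.18% of all genes were. The non-muscle relatives Tagln2 (-1.05) and Cnn2 (-0.73) were lower with MyoD against 1x GFP.

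Among regulators of smooth muscle genes, 9 of 17 tested (20 listed) were higher and 1 was lower with MyoD (median 0.53). Mef2a (2.24), Mef2d (1.05) and Tead4 (2.07), transcription factors that also act in skeletal muscle, rose. Against the 5 GFP libraries Srf, serum response factor, rose by 0.99 (edgeR adjusted p = 0.0013) with MyoD and by 0.65 (adjusted p = 0.0405) with Myf5. Klf4, a repressor of smooth muscle genes, fell by 0.85 with MyoD. With Myf5 against 1x GFP, 1 of the 17 regulators was called, higher, where 1.18% of all genes were called. Against 1x GFP the counts with MyoD were 8 higher and 2 lower (Klf4, Tbx18; median 0.30). Of 16 genes that set myosin phosphorylation, 3 were higher and 1 lower (median -0.02), where 21.4% of all genes were higher and 20.9% lower. Ppp1r14b, an inhibitor of myosin phosphatase (2.28), the kinase Prkg1 (1.40) and the calmodulin gene Calm3 (0.24) rose, and the kinase Rock1 (-0.18) fell. Against 1x GFP the counts were 2 higher (Ppp1r14b, Prkg1) and 3 lower (Rhoa and Dapk3 among them; median -0.06). Of 6 partners of phospholamban tested (9 listed), 3 were higher (median 0.28): the skeletal calcium pump Atp2a1 (5.18), the kinase Prkaca (1.25) and the pump Atp2a2 (0.40). Atp2a1 would not have passed the filter without the MyoD and Myf5 libraries, so its higher call was all but fixed in advance. Against 1x GFP 2 of the partners were higher (Atp2a1, Prkaca) and 1 was lower (Camk2d, median of the list 0.13).

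Lists of actin and MRTF targets and of TGF-beta and matrix genes were read in the same way, beside the same shares of all genes. Some genes stand on several lists, so the list counts are not separate observations. Col1a1 and Col3a1 are also fibroblast markers, Myl9 and Vcl are also on the contractile list, and Fhl2 is also among the regulators. Ccn2 is on both lists read here. Of 15 actin and MRTF targets, 5 were higher and 2 lower with MyoD against the 5 GFP libraries (median 0.30), but 1 (Myl9) was higher and 6 were lower against 1x GFP (median -0.10). Of 18 TGF-beta and myofibroblast matrix genes, 1 was higher and 9 were lower with MyoD (median -0.45), and 1 was higher and 9 were lower against 1x GFP (median -0.51). Fibronectin Fn1 (-1.26), periostin Postn (-1.04), Lrrc15 (-1.75) and collagen Col3a1 (-1.05) fell, and the receptor Tgfbr1 (0.67) rose. In 1x GFP against the MOI series, 8 of the 15 actin and MRTF targets were higher (median 0.39), among them Ccn2 (2.15) and Ccn1 (1.05). In that comparison 6 of the 18 contractile genes were higher (median 0.20), among them Acta2 (1.07) and Hspb6 (1.11), and the all-gene median was 0.00. Of 6 pericyte markers tested (8 listed), 2 were higher and 3 lower with MyoD against the 5 GFP libraries (median -0.48): Notch3 (3.02) and Mcam (3.19) rose, and Cspg4 (-1.46), Anpep (-1.93) and Pdgfrb (-0.62) fell. The counts against 1x GFP were also 2 higher and 3 lower (median -0.91).

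**Figure D3:**
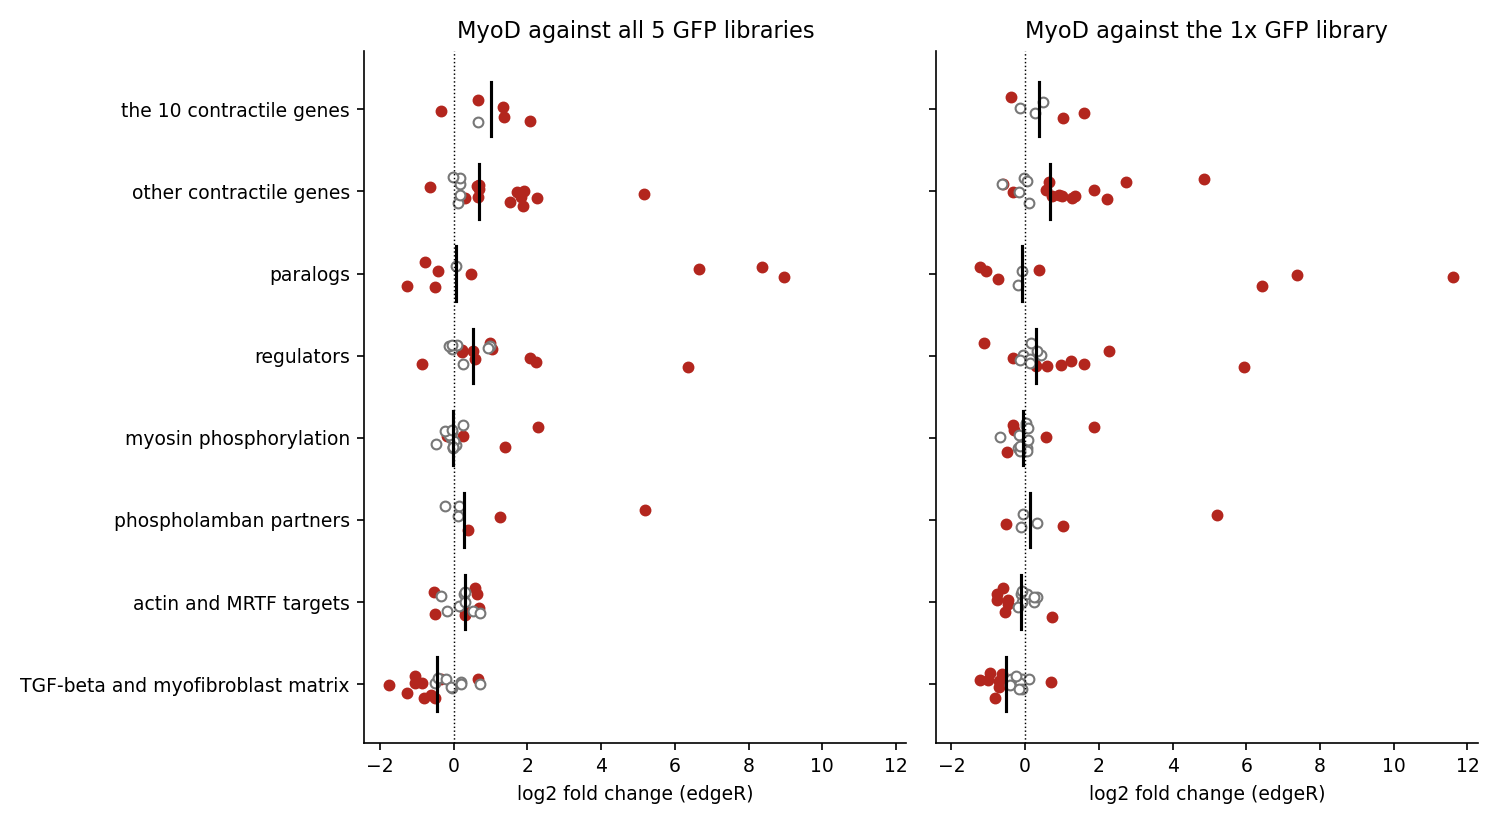
Log2 fold change of each gene tested with MyoD (points; filled, adjusted p under 0.05) against all 5 GFP libraries (left) and the 1x GFP library (right), for the 10 contractile genes, of which 6 were tested, and 7 other lists; black bars are list medians. The contractile medians are 1.00 and 0.37 and the TGF-beta list medians are -0.45 and -0.51. The paralogs Lmod3 and Mylk4 have nearly no counts in GFP, so their fitted values are no measure of size. Synpo2l is low there too, at most 0.548 CPM.

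In the second table Chimera and second-batch MyoD had 1 library each, so there is no replicate check and no test; ratios carry exact 95% intervals for counting error. Of 7 genes with at least 50 counts over both libraries, 2 were at least 2-fold higher in Chimera and 0 lower, where 2.68% of 13412 such genes were higher by that much and 2.32% lower. The median log2 ratio of the 7 was 0.49, against -0.02 over all genes. Mylk was 10.8 CPM in Chimera and 2.32 CPM in MyoD, a ratio of 4.67 (3.48 to 6.36), and Synpo2 was 3.75 and 1.56 CPM, a ratio of 2.40 (1.62 to 3.61). Tagln was 93.3 and 48.9 CPM, a ratio of 1.91 (1.78 to 2.05), and Cald1 was 1090 and 778 CPM, a ratio of 1.40 (1.38 to 1.43).

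Lmod1 was 24.7 CPM in Chimera and 27.4 CPM in second-batch MyoD, a ratio of 0.902 (0.806 to 1.01), so the 2 libraries were within counting error of each other. Smtn was lower in Chimera, at 31.2 against 46.8 CPM, a ratio of 0.666 (0.607 to 0.731). Myh11 was 1.83 and 1.44 CPM (46 and 34 counts), with a ratio of 1.28 (0.802 to 2.05), and both values lay above its highest level in the first table, 0.560 CPM. Cnn1 had 7 and 2 counts, Pln 0 and 2, and Myocd 1 and 0. Acta2 was 483 and 461 CPM. In the same libraries the skeletal muscle markers summed to 748 CPM in Chimera and 1833 CPM in MyoD and 4 of 8 (Ckm, Actc1, Ttn and Myog) were at least 2-fold lower in Chimera, while the fibroblast markers summed to 19366 and 14687 CPM; their part in the ratios was not tested.

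Second-batch MyoD differed from 1x MyoD of the first table for several of the genes. With the 37 mitochondrial genes, which are at 0 in the first table, left out of the totals, Tagln was 51.1 CPM in second-batch MyoD, 102 CPM in 1x MyoD of the first table and 97.3 CPM in Chimera. Mylk was likewise lowest in second-batch MyoD, at 2.42, 7.20 and 11.3 CPM in that order of libraries, while Synpo2 stood at 1.63, 4.23 and 3.91 CPM. Lmod1 was 28.6, 24.7 and 25.8 CPM. The tables may have been processed differently, so these values are set side by side with no test. The part of virus batch and of depth in them was not tested.

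**Figure D4:**
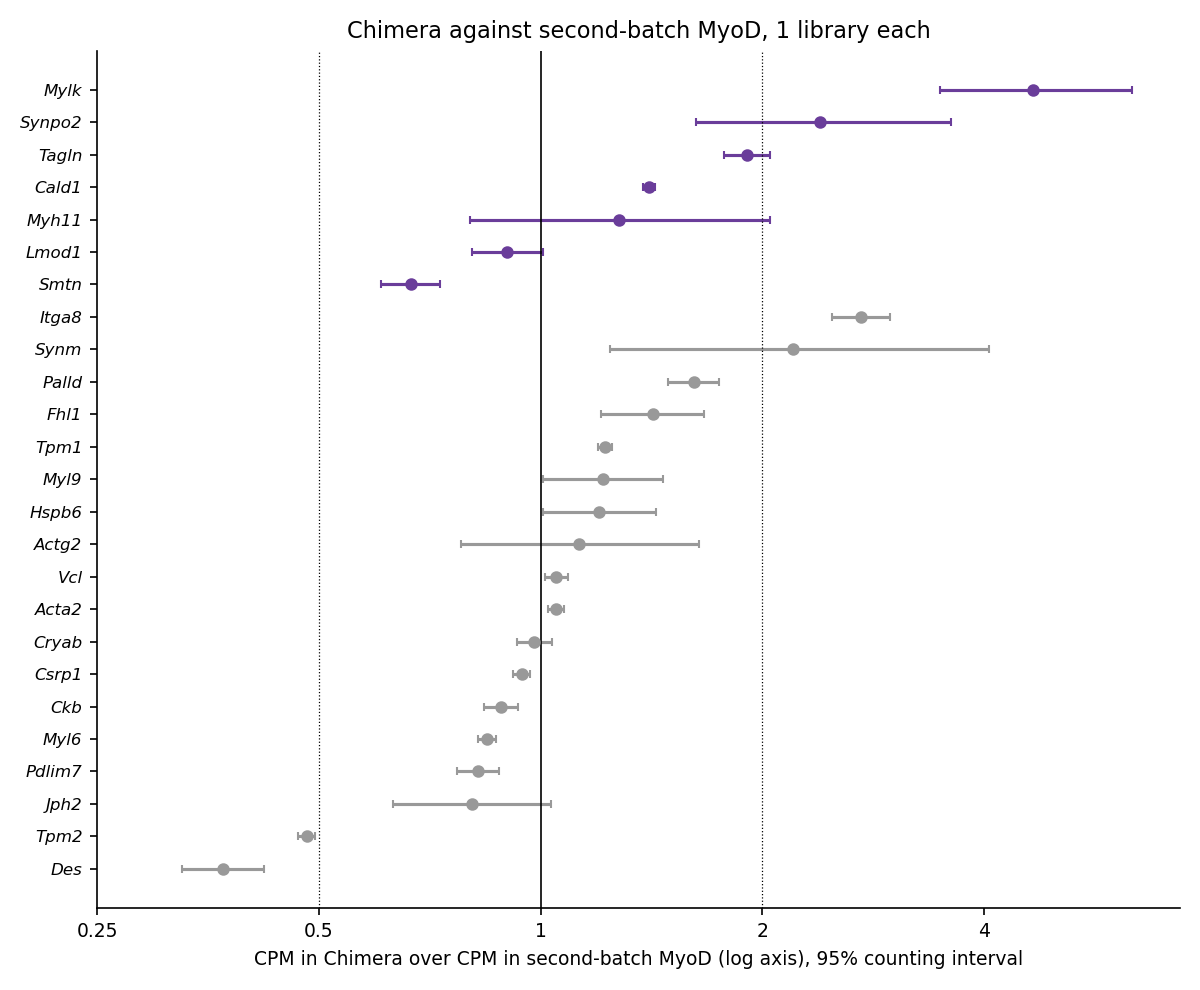
Ratio of CPM in Chimera to CPM in second-batch MyoD (log axis; dotted lines at 0.5 and 2) with exact 95% counting intervals, for the 7 contractile genes with at least 50 counts (purple) and other contractile genes past the same minimum (grey), 1 library each. Mylk and Synpo2 lie past 2-fold, at 4.67 and 2.40, and Smtn lies lowest of the 7, at 0.666.

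The genes whose levels most resembled those of Tagln, Cnn1 and Synpo2 were found over the 10 libraries of the first table, as Pearson correlations of log2(CPM + 1) among 10732 genes with a mean of at least 5 CPM that are on none of the lists. For Tagln they were Gm22953 (r = 0.980), Irf2bpl (0.978) and Gm9887 (0.977). For Synpo2 they were Psmb3 (0.980), Megf10 (0.979) and Adrm1 (0.976). Cnn1, with at most 21 counts a library, gave Wasf3 (0.949), Ovca2 (0.937) and 1600002K03Rik (0.931). These are descriptions of 10 libraries that share the split between the MOI series and the rest, with its difference in depth.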

How the data were processed

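The first table, as deposited by the authors, holds expected counts per gene, not whole for 1982 to 2767 genes a library, which were rounded. In the second table the deposited counts are whole. Per the submitters' processing notes, CASAVA 1.8.2, TopHat2 2.0.8 and mm9 were used; the counting tool, annotation release and strand setting are not given in the sources used here. Symbols came from a name table (32610 of 37287 IDs matched), so no positions are given beside RefSeq promoter windows. CPM use the library totals.

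Genes with at least 1 CPM in at least 2 libraries were tested, two-sided, with edgeR 4.0.16 (R 4.3.3; TMM, quasi-likelihood F test, Benjamini-Hochberg over all genes tested, adjusted p under 0.05) over all 10 libraries, 6 residual degrees of freedom. Comparisons with 1x GFP fit that library as its own group, which is assumed to vary like the others. The MOI slope used the 4 MOI libraries (2 residual degrees of freedom). Alternatives were DESeq2 1.42.0, RLE scaling, no filter, library totals, 1x GFP as control, a dose term and leaving out each library. The second table was not fitted: counts gave ratios with exact binomial 95% intervals. No 2 libraries of a group agreed within sampling noise. The fit was tested on simulated data.

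The 10 genes and all lists were chosen with earlier results of these data known. All 10 genes are named; of other lists, genes called with an absolute log2 fold change of at least 1, or else the 2 with the smallest p. Genes named to spell out a count of 5 or fewer, and Srf and Acta2 where below that size, were chosen after their values were seen. The adipocyte list (64.9 to 220 CPM summed) and the macrophage list (11.2 to 19.3 CPM) bear on no result here. Some list genes are counted but not reported here by name.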

Additional observations from a re-analysis of the deposited data

Results flagged for a closer look

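In 3 of the 9 contractile genes examined this way, 1 of the 5 GFP libraries stood apart from the others, judged by its gap to the nearest library as a share of the whole range (Dixon's test, critical value 0.71 for 5 libraries). It was the 1x GFP library each time: Tagln at 118 CPM (gap 0.853 of the range), Lmod1 at 16.7 CPM (0.772) and Mylk at 5.28 CPM (0.825). All 3 were higher there than in the 4 libraries of the MOI series. Chance flags about 1 in 20 such groups. By the same rule the 1x GFP library stood apart on the high side in 6.78% of the 13825 genes tested, and the genes share the same 5 libraries. The 1x GFP library also had the greater depth, 81.5 M counts against 17.9 to 22.4 M; the part of depth, dose or preparation cannot be told apart.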

How the results depend on the processing

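Settings other than leaving out a library gave 37 recomputed counts of genes called, of which 31 stayed within 1.5 times the reported count. For the fits that leave out a library, the share of all genes called is not given here. Those counts therefore cannot be read as particular to these genes. With 1x GFP as the control the count was 3 for MyoD, 0 for Myf5 and 0 for untransduced cells. DESeq2 called 2 genes for Myf5 against GFP and 2 for MyoD against Myf5, and dose as a term gave 2 for the latter. Leaving out each library gave 2 to 6 genes called for MyoD against GFP (2 without 2x MyoD, 6 without 1x GFP), 0 to 3 for Myf5 against GFP (3 without 1x GFP), 0 to 3 for MyoD against Myf5 (3 without 1x MyoD), 0 to 4 for untransduced cells (4 without 1x GFP) and 0 to 1 for the MOI slope (1, Tagln, without MOI 60). It gave 2 for 1x GFP against the MOI series and 0 for dose each time.

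Of 225 single-gene values under other settings, 208 kept direction and side of the threshold, and 8 changed sign; none of those 8 was a called value. With 1x GFP as the control these were Tagln for MyoD (-0.143), Myf5 (-0.167) and untransduced cells (-0.105), Mylk for untransduced cells (-0.743) and Cald1 for Myf5 (-0.032). With library totals, chosen after seeing the data, they were Cald1 for Myf5 (-0.0239) and for 1x GFP against the MOI series (-0.00648), and Mylk for MyoD against Myf5 (-0.00349). On leaving out a library, 13 of 208 values changed sign, none of them called. Their ranges were, for MyoD against Myf5, -0.115 to 0.204 (Tagln) and -0.184 to 0.261 (Mylk), for Myf5 against GFP, -0.00218 to 0.0155 (Cald1), and for dose, -0.293 to 0.172 (Tagln) and -0.321 to 0.0116 (Cald1). For the MOI slope they were -0.0875 to 0.00606 (Tagln), -0.034 to 0.0333 (Lmod1), -0.000932 to 0.175 (Mylk) and -0.344 to 0.367 (Synpo2). The cause was not tested. The labels give doses but no replicate numbers, so the only matching of MyoD with Myf5 libraries was by dose, in the fit with dose as a term. Depth limits Cnn1, Myh11, Pln and Myocd, which had at most 31 counts a library in the first table.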
